A study of Mus musculus with 18 samples.

Results

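Neurotrophins and the ligands related to them, together with their receptors, were examined in ATAC-seq peak lists of mouse retina. The 8 genes were chosen by name as a pathway, not by their values, although earlier results of these data were known. They were the ligand genes Bdnf, Ntf3, Ntf5 and Gdnf, and the receptor genes Ntrk2, Ntrk3, Ngfr and Gfra1. Peaks were taken when they overlapped the window from 10 kb upstream of a gene's start to its end (mm10, GENCODE M21). Of 911837 peaks in 18 libraries, 502 lay in the 8 windows, which are 8 of 21938 protein-coding genes. Peaks that overlapped between libraries were merged, and those found in 2 or more libraries were kept as consensus regions. The windows held 42 of 73567 consensus regions, numbered below along the chromosome within each gene.

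In ATAC-seq a transposase cuts DNA where chromatin is open and tags the ends, and sequenced fragments accumulate there as peaks. The 18 libraries were made from whole retinas of wild-type (WT) mice in 6 groups of 3: untreated, contralateral and IOP, each at 3 months (3mo) and 18 months (18mo) of age. IOP retinas came from eyes held at an intraocular pressure of 30 mmHg for 1 h, contralateral retinas from the opposite eyes that received no pressure, and untreated retinas from animals with no pressured eye. Per the labels the pressured and contralateral retinas were taken on day 2 after the pressure, while the study's text gives another day. The labels' shared treatment text also describes the kinase inhibitor dasatinib, although no label assigns a library to it, and whether it was given is unknown. Their shared preparation text describes crosslinking and immunoprecipitation, whereas in the paper fresh tissue of each eye was permeabilised and its nuclei transposed. Contralateral eyes share an animal with a pressured eye, and the labels do not say which libraries came from the same mouse.

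Neurotrophins are secreted growth factors that keep neurons alive and shape their connections. They signal through Trk receptor tyrosine kinases, which favour survival, and through Ngfr, the low-affinity receptor that can also promote cell death. GDNF belongs to another family and binds Gfra1, a surface-anchored co-receptor that acts with the kinase Ret. In the retina, BDNF acting through TrkB (Ntrk2) is best known for supporting ganglion cells, which also receive it by transport from the brain. Müller glia are a known source of trophic factors for photoreceptors.

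Sequences are given for the stretches the results turn on, from the RefSeq genome (GRCm38.p6, the same build as mm10). Each of the 6 regions is shown as the 300 bases centred on its median summit, plus strand, with exon bases left out, and capitals mark matches to the searched motifs. The first was the only region near a start of Gdnf (chr15:7812868-7813167). The next pair, upstream of Ntrk3, were present throughout 1 group and absent from another (chr7:78595930-78596229 and chr7:78658143-78658442). Ngfr region 1 (chr11:95577822-95577973, 152 bases) was the only member region whose calls differed in a test at an unadjusted level, Ngfr region 2 (chr11:95586202-95586501) had the highest rank of all 42, and Gfra1 region 1 (chr19:58317015-58317314) was absent from 1 group.
Gdnf region 1: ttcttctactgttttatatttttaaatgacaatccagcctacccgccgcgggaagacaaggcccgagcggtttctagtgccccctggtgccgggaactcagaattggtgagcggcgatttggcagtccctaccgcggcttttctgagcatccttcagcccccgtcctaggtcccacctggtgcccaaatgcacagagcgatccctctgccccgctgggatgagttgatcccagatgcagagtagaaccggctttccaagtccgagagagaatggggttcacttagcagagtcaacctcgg
Ntrk3 region 10: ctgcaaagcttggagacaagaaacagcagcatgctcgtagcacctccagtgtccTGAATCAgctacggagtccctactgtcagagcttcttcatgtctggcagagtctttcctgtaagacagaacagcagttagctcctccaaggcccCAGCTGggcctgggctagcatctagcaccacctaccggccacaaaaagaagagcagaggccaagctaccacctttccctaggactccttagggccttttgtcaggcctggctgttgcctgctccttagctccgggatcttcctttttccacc
Ntrk3 region 11: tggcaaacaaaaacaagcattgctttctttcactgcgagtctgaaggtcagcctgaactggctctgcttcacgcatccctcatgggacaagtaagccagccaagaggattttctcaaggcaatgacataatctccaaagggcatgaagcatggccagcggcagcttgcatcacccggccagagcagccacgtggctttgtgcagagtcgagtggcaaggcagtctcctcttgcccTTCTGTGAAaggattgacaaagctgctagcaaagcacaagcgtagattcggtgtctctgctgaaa
Ngfr region 1: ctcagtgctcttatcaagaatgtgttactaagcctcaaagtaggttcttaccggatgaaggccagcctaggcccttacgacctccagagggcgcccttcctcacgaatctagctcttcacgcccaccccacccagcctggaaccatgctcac
Ngfr region 2: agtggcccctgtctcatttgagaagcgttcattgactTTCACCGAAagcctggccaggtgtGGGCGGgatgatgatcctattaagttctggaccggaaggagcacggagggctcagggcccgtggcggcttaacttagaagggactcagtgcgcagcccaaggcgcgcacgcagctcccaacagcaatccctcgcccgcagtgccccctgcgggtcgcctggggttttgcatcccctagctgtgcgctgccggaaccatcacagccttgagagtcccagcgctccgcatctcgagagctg
Gfra1 region 1: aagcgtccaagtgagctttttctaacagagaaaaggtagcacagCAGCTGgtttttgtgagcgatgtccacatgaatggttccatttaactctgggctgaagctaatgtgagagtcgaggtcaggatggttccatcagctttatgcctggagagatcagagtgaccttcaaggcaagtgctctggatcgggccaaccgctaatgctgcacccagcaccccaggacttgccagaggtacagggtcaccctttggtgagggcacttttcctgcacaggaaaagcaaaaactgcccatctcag

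Below are the stretches just before the starts of the 2 receptor genes whose promoters were called in all 18 libraries, from RefSeq promoter entries and read in the direction of transcription: Ntrk2 (chr13:58806319-58806568, plus strand, 250 bases) and Ngfr (chr11:95587736-95587948, minus strand, 213 bases). Of the 8 genes, 6 had entries there, and Ntf5 and Ntrk3 had none.
Ntrk2 promoter: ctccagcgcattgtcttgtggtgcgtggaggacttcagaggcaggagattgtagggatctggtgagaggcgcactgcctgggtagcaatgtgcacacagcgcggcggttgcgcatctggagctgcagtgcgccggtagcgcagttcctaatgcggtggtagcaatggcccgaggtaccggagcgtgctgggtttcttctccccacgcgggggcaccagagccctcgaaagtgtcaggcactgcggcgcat
Ngfr promoter: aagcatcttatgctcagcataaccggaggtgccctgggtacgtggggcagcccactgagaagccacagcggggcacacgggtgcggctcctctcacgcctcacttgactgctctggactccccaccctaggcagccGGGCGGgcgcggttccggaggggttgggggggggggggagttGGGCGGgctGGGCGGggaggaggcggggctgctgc

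The capitals come from a search on both strands for 7 motifs in the 300-base windows. GGGCGG (GC box) was present in 14 of 42 member windows (33.3%) and in 22.2% of 73449 windows of all consensus regions on the assembled chromosomes. CAGCTG (E-box) was in 10 (23.8% against 22.8%), TTCNNNGAA (STAT) in 8 (against 7.07%), TAATCC (Crx and Otx2) in 3 (7.14% against 17.7%), TGANTCA (AP-1) in 2 (4.76% against 9.10%) and TAATTA (other homeodomain) in 1 (2.38% against 6.21%). TGACGTCA, the CRE that binds Creb1, was in 0 member windows and in 1.05% of all windows, so these letters are not in the 42 windows. The STAT matches lay in windows of Ntf5, Ntrk2, Ntrk3, Ngfr and Gfra1. The median GC content was 55.4% in member windows and 51.7% in all, and it was 61.9% in the 10 member windows called in all 18 libraries. These matches describe letters only and were not tested as binding sites.

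The 42 regions were distributed unevenly. Ntrk2 had 12 regions, Ntrk3 11, Bdnf and Gfra1 5 each, Ntf5 4, Ngfr 3, and Ntf3 and Gdnf 1 each. The windows range from 13.5 kb (Ntf5) to 572 kb (Ntrk3), so that the density ran from 1.32 regions per 100 kb at Ntf3 to 29.7 at Ntf5, with 10.4 at Ngfr and 8.02 at Bdnf. The Ntf5 window also holds Kcna7, a potassium channel gene, and Ntf5 region 2 lies at the Kcna7 start. At the median summit, 27 regions were intronic, 11 lay in promoters (1 kb before to 100 bp after a start in the GENCODE basic set), 3 were intergenic and 1 was exonic.

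**Figure D1:**
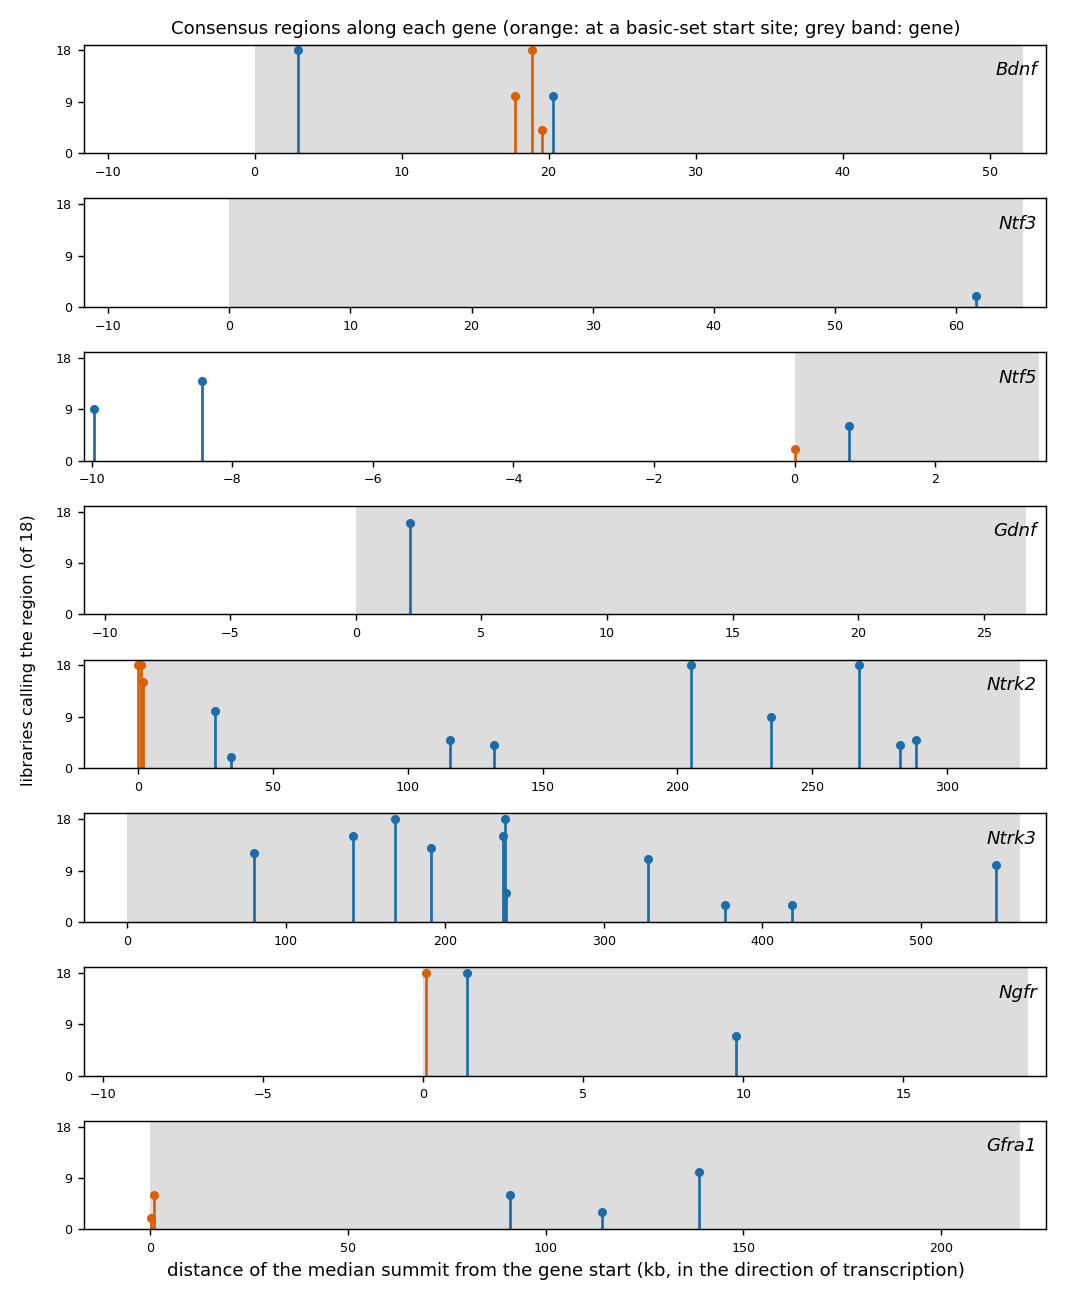
Each panel is 1 gene. The horizontal axis is the distance of a region's median summit from the gene start (kb) and the height is the number of libraries calling the region, of 18. Regions at a start site in the basic gene set are orange, others blue, and the grey band is the gene. Ntrk2 and Ngfr reach 18 at their starts, Bdnf reaches 18 well inside the gene, and Ntf3, Gdnf and Ntrk3 have no orange marker.

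Called in all 18 libraries were 10 of the 42 regions, against 33.6% of all 73567 consensus regions. They were 4 at Ntrk2, 2 each at Bdnf, Ntrk3 and Ngfr, and none at Ntf3, Ntf5, Gdnf or Gfra1. The median member region was called in 10 libraries (12 for all regions), and 13 of 42 (31.0%) were called in 5 or fewer (30.1% of all). The median width of member regions was 377 bp and that of all regions 405 bp. At start sites, 47.6% of protein-coding genes had a region called in all 18 libraries and 44.7% had none. Bdnf, Ntrk2 and Ngfr belonged to the former and Ntf3, Gdnf and Ntrk3 to the latter. A region that was not called may still be open below the caller's threshold, and in whole retina fewer cells of a type cannot be told apart from less signal per cell.

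**Figure D2:**
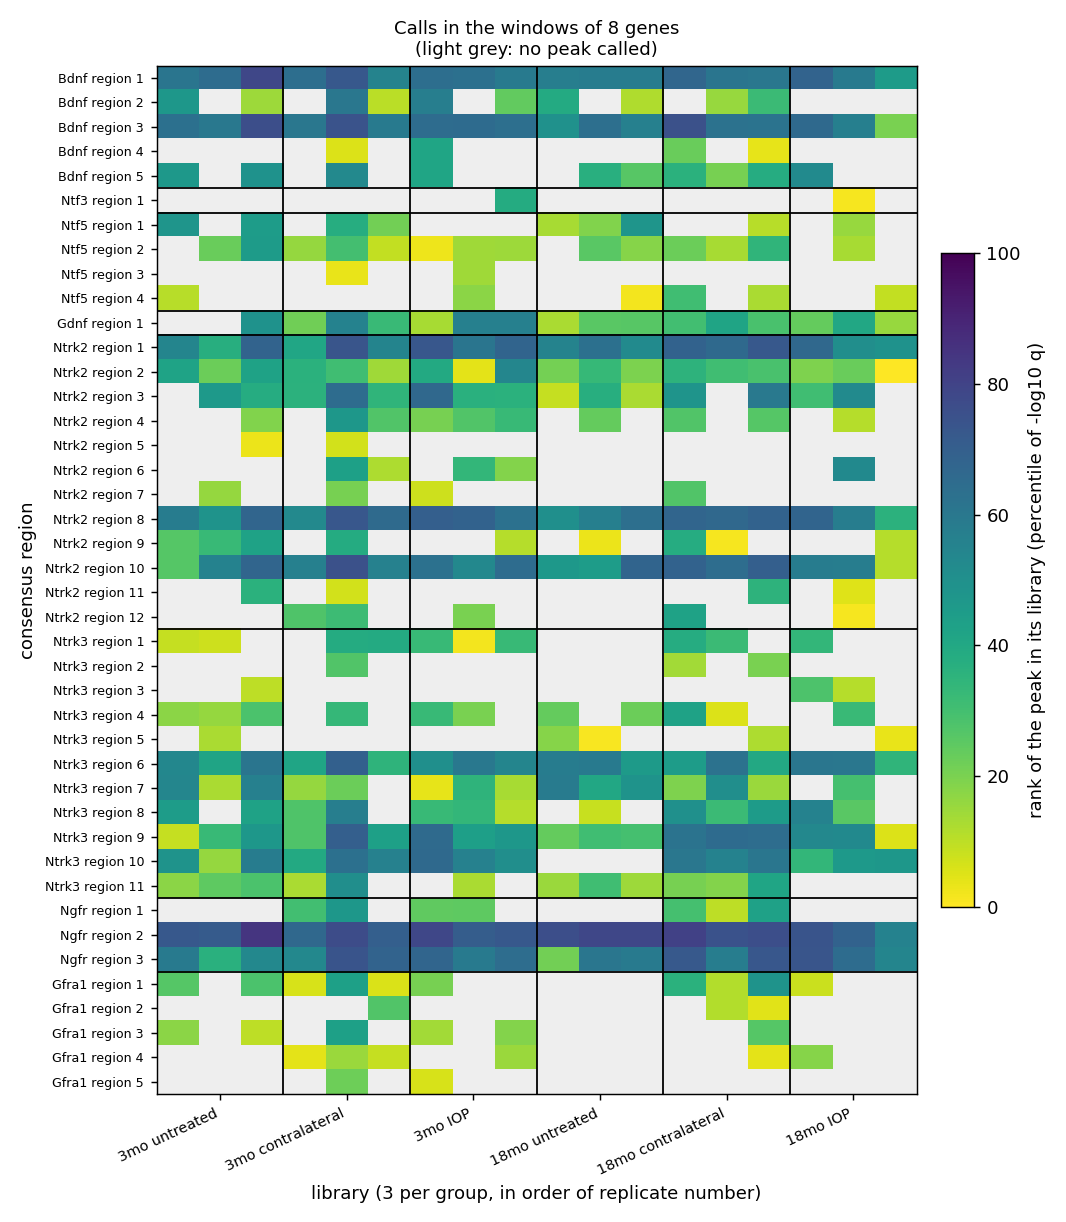
Rows are the 42 regions by gene and columns the 18 libraries by group. Colour is the rank of the library's strongest peak in the region among all peaks of that library (percentile of −log10 q), and light grey means no peak. The 10 continuous rows are the regions called in all libraries, and gaps of 3 adjoining grey cells beside full groups are the regions called in all of one group and none of another.

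Across the series, libraries held between 36011 (18mo IOP replicate 3) and 66160 peaks (3mo contralateral replicate 2). The shortest listed peak was 79 to 89 bp in the 6 untreated libraries, 114 to 122 bp in 5 others and 148 to 157 bp in the remaining 7. Untreated and contralateral groups therefore differ in this property as well as in treatment. Both longer classes occurred in every contralateral and IOP group. At 18mo the 114 to 122 bp class was more frequent among contralateral than among IOP libraries, so the IOP comparison is not balanced for it. With the IOP test of regions stratified by age and class, 0 member regions differed at an unadjusted p under 0.05. In regions called in all 18 libraries the strongest peak was narrower in untreated than in contralateral libraries for 10 of 10 member regions and for 98.2% of all 24751. Of 12 retinal marker genes (photoreceptor, bipolar, amacrine, ganglion and Müller cell), 8 had a start-site region in all 18 libraries and 1 (Grm6) in none. A further 11 markers stood for pigment epithelium, lens and cornea, and for endothelium, microglia and astrocytes, which retina also holds. Of these only Mitf had a start-site region in all 18 libraries, and the other 10 were not called in any library.

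Bdnf, the gene of the ligand of TrkB, has several alternative first exons, each with its own promoter, and 9 start sites in the annotation used. Regions lay at 5 of these 9. Region 3 (chr2:109693190-109694011) had its median summit 17 bp upstream of the start of transcript Bdnf-205, inside intron 1 of the longest form, and was called in all 18 libraries. Its rank in the 3mo untreated libraries was 63.1, 59.8 and 76.1, where 100 is the top peak of a library, and 49.4, 63.6 and 56.3 in the 18mo untreated libraries. In contralateral retinas it was 60.4, 74.4 and 59.3 at 3mo and 75.2, 62.2 and 61.9 at 18mo. In IOP retinas it was 64.6, 65.0 and 63.5 at 3mo and 65.8, 56.8 and 20.3 at 18mo. The groups overlapped, and the value of 20.3 in 18mo IOP replicate 3, the library with the fewest peaks, stood below the other 17.

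Region 1 of Bdnf (chr2:109677116-109678542, 1427 bp) was the widest of the 42 and also called in all 18 libraries, 641 bp downstream of the start of Bdnf-206. In 16 libraries it was made of more than 1 peak, with up to 3, and the strongest peak lay 474 bp (median) further downstream. Its rank was 62.0 ± 7.16 (SD, n = 18), the highest at Bdnf, with a range of 45.1 to 78.6. The starts of Bdnf-201, Bdnf-207 and Bdnf-206, the outermost forms, had no region with its median summit within the promoter limits. The edge of region 1 did reach into those of Bdnf-206.

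The remaining Bdnf regions were called in some libraries. Region 2 covered the start of Bdnf-209 (its summit was 9 bp downstream) and was called in 10 libraries, 2 in each group except 18mo IOP, where none called it. Region 4, 166 bp upstream of the start of Bdnf-203, was called in 4 libraries, 1 of 3mo contralateral, 1 of 3mo IOP and 2 of 18mo contralateral. All 4 were among the 5 libraries with a shortest peak of 114 to 122 bp. Region 5 was called in 10, including all 5 of these and 1 of the 7 with 148 to 157 bp. Whether this property sets the calls was not tested. The numbers of calls of regions 2, 4 and 5 were too high or too low for any test of age, IOP or kind of control to reach an exact p under 0.05. The total number of peaks in the Bdnf window was 5.00 ± 1.73 in untreated, 4.33 ± 1.53 in contralateral and 4.00 ± 1.73 in IOP libraries at 3mo, and 4.33 ± 0.577, 5.33 ± 0.577 and 3.33 ± 1.15 in the same order at 18mo (mean ± SD, n = 3). IOP retinas had 1.17 fewer peaks than contralateral ones averaged over ages (exact permutation p = 0.210, two-sided, labels permuted within age).

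Ntf3, which encodes neurotrophin-3, the ligand of TrkC, had the fewest peaks of the ligands. The only consensus region (chr6:126105218-126105402) was in an intron 59656 bp from the nearest start, and was called by 3mo IOP replicate 3 and by 18mo IOP replicate 2. No library called a region at any of its 3 starts. A further peak was listed in 18mo contralateral replicate 1, and the other 15 libraries listed none.

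Ntf5, which encodes a further TrkB ligand (neurotrophin-4), had a region at its start (chr7:45413557-45413857) in 2 libraries only, 3mo contralateral replicate 2 and 3mo IOP replicate 2. Its ranks there, 3.27 and 14.3, were near the bottom of both lists. Region 4, in intron 1, was called in 6 libraries. The most often called region of the window, region 2 with 14 libraries, belongs by position to Kcna7. Peak numbers were between 1 and 3 in every library, and the 6 group means lay between 1.33 and 2.00.

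Gdnf encodes the glial cell line-derived ligand of Gfra1. Its region 1 (chr15:7812794-7813511) was called in 16 libraries and lay 2172 bp downstream of the only start in GENCODE, in intron 1. RefSeq lists a further start, 709 bp downstream of the median summit, which puts the region in that promoter. The rank was 49.2 in the only 3mo untreated library that called it. It was 21.8, 55.7 and 32.3 in 3mo contralateral, 12.9, 56.4 and 56.6 in 3mo IOP, 12.7, 25.7 and 26.1 in 18mo untreated, 30.2, 41.5 and 28.7 in 18mo contralateral, and 23.6, 40.0 and 15.6 in 18mo IOP libraries. At 18mo every contralateral library ranked above every untreated one, and the lone 3mo untreated value exceeded all 18mo values, while the other groups overlapped. The 2 libraries without a call were both 3mo untreated, so that it was called in 4 of 6 of the 3mo and 6 of 6 of the 18mo controls, with the same counts for untreated against contralateral. With 10 of 12 controls called, no split by age or kind of control could reach an exact p under 0.05 (the smallest possible is 0.455).

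Among the receptors, Ntrk2 (TrkB, the BDNF receptor) had a start called throughout. Region 1 (chr13:58806346-58807131) had its median summit 42 bp upstream of the outermost start and region 2 (chr13:58807552-58808230) lay 68 bp upstream of the start of Ntrk2-205, and both were called in all 18 libraries. The rank of region 1 was 54.6, 37.3 and 68.1 in untreated, 40.8, 73.8 and 54.8 in contralateral and 72.9, 61.1 and 67.6 in IOP libraries at 3mo. At 18mo it was 55.3, 63.2 and 52.1 in untreated, 68.4, 65.8 and 72.6 in contralateral and 66.4, 50.5 and 48.9 in IOP libraries. Groups of one age overlapped except at 18mo, where all contralateral libraries stood above all untreated ones, a difference of 3 against 3 for which no exact p can go below 0.1. Region 2 ranked far lower, at 27.6 ± 13.6 (SD, n = 18). Region 3, 55 bp upstream of a further start, was called in 15 libraries.

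Far from the start, Ntrk2 had a pair of intronic regions called in all 18 libraries. Region 8 (chr13:59011053-59012047, intron 13 of Ntrk2-201) was 205075 bp downstream of the gene start, with a rank of 61.1 ± 9.47 (SD, n = 18), the highest of the gene. Region 10 (chr13:59073331-59074166, intron 16) lay 267169 bp downstream, with a rank of 55.9 ± 15.9, and the non-coding gene 4930415C11Rik overlaps it. The rank of region 8 was 8.07 higher in contralateral than in untreated libraries and that of region 10 13.6 higher (exact permutation p = 0.0823 for both). The other 7 intronic Ntrk2 regions were called in 2 to 10 libraries, and for most of them the number of calls was such that no test could reach an exact p under 0.05. The number of peaks in the window was 7.33 ± 1.75 in 18mo and 9.67 ± 3.27 in 3mo controls (n = 6 each, exact permutation p = 0.195). The highest value, 15 peaks, was in 3mo contralateral replicate 2, the longest list.

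Ntrk3 (TrkC, the neurotrophin-3 receptor) had no region at any of its 4 start sites in the basic set. The nearest region called in all 18 libraries was region 9 (chr7:78568867-78569388), 8661 bp inside the gene in intron 1, and the other was region 6 (chr7:78499746-78500685) in intron 3. The comprehensive annotation extends the gene 159604 bp further upstream through transcripts outside the basic set, and regions lay at 2 of its 19 start sites. Regions 10 and 11 fall in this extension, 17672 and 79885 bp upstream of the start of Ntrk3-201, and count as intergenic in the basic set.

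Region 10 (chr7:78595867-78596310), the Ntrk3 stretch shown first above, was called in 15 libraries, and the 3 without a call were the 18mo untreated libraries. Its ranks were 48.8, 15.9 and 58.1 in 3mo untreated, 39.3, 63.1 and 56.0 in 3mo contralateral, 65.8, 56.0 and 50.4 in 3mo IOP, 60.3, 55.8 and 60.8 in 18mo contralateral and 33.9, 46.1 and 47.2 in 18mo IOP libraries. The lowest of these, 15.9, was in 3mo untreated replicate 5, and the highest, 65.8, in 3mo IOP replicate 1. All 6 untreated libraries had the same short peak class and the 18mo untreated lists held 50595 to 54009 peaks, within the range of the 3mo ones (46895 to 66114). With lists cut to the same number of peaks it was called in 2 of 3 libraries of 3mo untreated, none of 18mo untreated and all of the other 4 groups. When peaks had to cover 50% of the region, no untreated library of either age called it and 2 of 3 in each of the other 4 groups did, so both all-or-none splits were lost. No test over both kinds of control could reach a call (exact p = 0.182 for age and for kind of control).

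Region 11 (chr7:78658164-78658502) was called in 12 libraries: all 3 of 3mo untreated, 2 of 3mo contralateral, 1 of 3mo IOP, all 3 of 18mo untreated, all 3 of 18mo contralateral and none of 18mo IOP. IOP libraries thus called it in 1 of 6 cases and contralateral ones in 5 of 6 (exact conditional p = 0.0950, stratified by age). With lists cut to the same number of peaks it was called in 5 libraries, 1 of them 18mo contralateral, so the split at 18mo was then lost. It was also lost when peaks had to cover 50% of the region (2 of 3 contralateral and 0 of 3 IOP libraries at 18mo). Its rank where called was between 12.5 and 50.7, and 18mo IOP replicate 3 had the shortest list of all.

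Region 9 of Ntrk3 differed in rank between kinds of control. It was 8.82, 32.8 and 47.2 in 3mo untreated and 23.6, 30.5 and 29.3 in 18mo untreated libraries, against 27.5, 69.9 and 43.2 in 3mo contralateral and 62.1, 65.1 and 64.3 in 18mo contralateral libraries. The mean was 26.6 percentile points higher in contralateral libraries (exact permutation p = 0.0216, two-sided; adjusted p = 0.115 over 24750 regions), and the groups overlapped at 3mo but not at 18mo. The number of Ntrk3 peaks was 9, 10 and 9 in untreated, 7, 13 and 4 in contralateral and 7, 9 and 6 in IOP libraries at 3mo. At 18mo it was 8, 7 and 6 in untreated, 10, 9 and 8 in contralateral and 7, 7 and 4 in IOP libraries, so that every contralateral library exceeded every IOP library at 18mo, while the other groups of one age met or overlapped. Every 18mo IOP list was also shorter (36011 to 48723 peaks) than every 18mo contralateral list (51166 to 60755).

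Ngfr, the low-affinity receptor of all neurotrophins, had 2 of its 3 regions called in all 18 libraries. Region 2 (chr11:95586092-95586681), in intron 1 and 1383 bp downstream of the start, had the highest rank of all 42, at 73.6 ± 6.44 (SD, n = 18), and its summit varied least among the 10 regions called throughout (SD 26.5 bp). It ranked 72.4, 71.3 and 84.4 in untreated, 66.1, 76.7 and 69.6 in contralateral and 78.7, 70.7 and 72.6 in IOP libraries at 3mo. At 18mo it was 75.9, 78.6 and 78.7 in untreated, 80.5, 74.9 and 76.0 in contralateral and 74.2, 68.4 and 55.6 in IOP libraries. No comparison of it reached an unadjusted exact permutation p under 0.05 (age 0.184, IOP 0.415, kind of control 0.340). Region 3 (chr11:95587227-95587932) lay at the start, in exon 1, and covered it. Its rank was 66.4 ± 8.67 in contralateral and 48.4 ± 15.9 in untreated libraries (n = 6 each, exact permutation p = 0.0281; adjusted p = 0.133), with overlap between them. Leaving out any 1 of 4 contralateral libraries raised the exact permutation p to between 0.0649 and 0.0671.

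Ngfr region 1 (chr11:95577833-95578262) was the only member region to differ in a region test at the unadjusted level. Its median summit lies in intron 3, 9763 bp from the start, and 148 bases of its sequence window were exonic. The region therefore reaches into an exon. It was called in 0 of 6 untreated and 5 of 6 contralateral libraries (Fisher's exact p = 0.0152, two-sided; adjusted p = 0.132), the missing one being 3mo contralateral replicate 3. IOP libraries called it in 2 of 3 cases at 3mo and 0 of 3 at 18mo. It ranked 9.82 to 47.1 where called. With lists cut to the same number of peaks it was called in 3 of 6 contralateral libraries and 0 of 6 untreated (exact p = 0.182). In total, the Ngfr window held 3.17 ± 0.753 peaks in contralateral and 2.17 ± 0.408 in untreated libraries (n = 6 each, exact permutation p = 0.0541).

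Gfra1, the GDNF co-receptor, was the least stably called receptor, with no region in all 18 libraries. Its start regions 4 (chr19:58454815-58455299) and 5 (chr19:58455677-58455876) were called in 6 and 2 libraries, with ranks of at most 18.0 and 22.2. Region 4 was called in all 3 libraries of 3mo contralateral and in none of 3mo untreated. Region 1 (chr19:58317042-58317480), in intron 5, was called in 10 libraries: 2 of 3mo untreated, all 3 of 3mo contralateral, 1 of 3mo IOP, none of 18mo untreated, all 3 of 18mo contralateral and 1 of 18mo IOP. Region 1 was called in all 5 libraries with a shortest peak of 114 to 122 bp. It was called in 3 of the 7 with 148 to 157 bp. Neither region 1 nor region 4 was called in any library once lists were cut to the same number of peaks, and with 50% cover region 4 was called in 2 of 3 libraries of 3mo contralateral.

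The number of Gfra1 peaks was 2, 0 and 2 in untreated, 3, 6 and 3 in contralateral and 3, 0 and 3 in IOP libraries at 3mo. At 18mo it was 0, 0 and 0 in untreated, 1, 2 and 4 in contralateral and 2, 0 and 0 in IOP libraries. Contralateral libraries had 3.17 ± 1.72 and untreated ones 0.667 ± 1.03 (n = 6 each), a difference of 2.50 (exact permutation p = 0.0173, two-sided; adjusted p = 0.149 over 8519 genes). The groups overlapped, since 2 contralateral libraries had 1 and 2 peaks and 2 untreated ones had 2. With lists cut to the same number of peaks the difference was 0.333 (exact permutation p = 0.455). IOP libraries had 1.83 fewer peaks than contralateral ones (exact permutation p = 0.0900). This IOP difference shrank to −0.167 with lists cut to the same number of peaks.

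**Figure D3:**
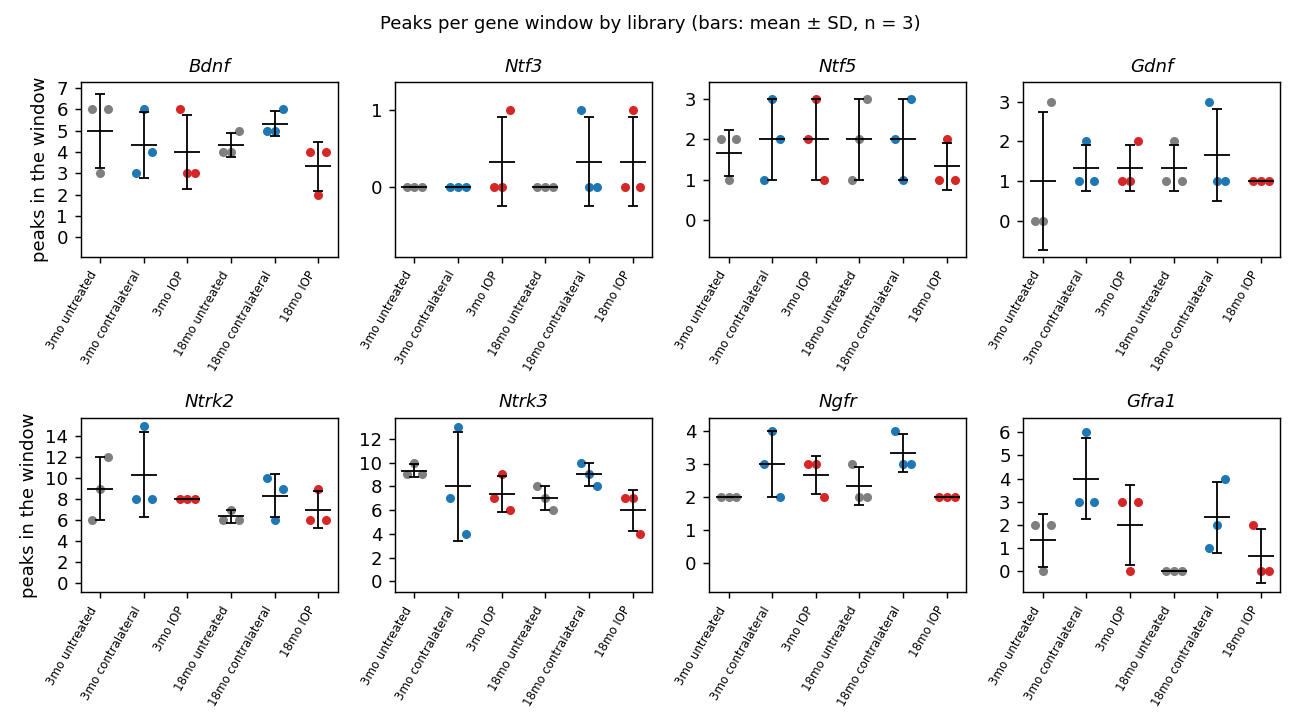
The vertical axis is the number of peaks in the window of each gene, points are libraries (grey untreated, blue contralateral, red IOP), and bars are mean ± SD (n = 3). Gfra1 shows no peak in the 18mo untreated libraries and 1 to 6 in the contralateral ones, while at 18mo the contralateral points lie above the IOP points for Bdnf, Ntrk3 and Ngfr. Every 18mo IOP list was shorter than every 18mo contralateral list.

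Over all 8 windows the number of peaks per 10000 peaks of a library was 5.38 ± 0.0579 in untreated, 6.61 ± 0.812 in contralateral and 5.89 ± 0.138 in IOP libraries at 3mo, and 4.44 ± 0.268, 5.71 ± 0.377 and 4.88 ± 0.142 in the same order at 18mo (n = 3). In each kind of retina the 18mo mean was lower than the 3mo mean. At both ages contralateral retinas had the highest mean. These shares were not tested and were not set beside those of other genes. In peak number per gene, 18mo controls had a lower mean than 3mo controls for Ntrk2, Ntrk3 and Gfra1. The mean was higher in 18mo controls for Bdnf, Ntf3, Ntf5, Gdnf and Ngfr, and 0 of 7 testable genes differed with age.

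The first question of the study was what changes with age, asked here in 6 controls of 18mo against 6 of 3mo. Member regions called differently numbered 0 of 4 that could reach an exact p under 0.05, against 3.58% of 9868 regions genome-wide. Fisher's exact test with Benjamini-Hochberg adjustment called 0 regions genome-wide as well, with 353 under an unadjusted p of 0.05. Peak numbers differed for 0 of 7 testable genes (3.47% of 8519 genes). Ranks differed for 0 of 10 regions, while 4.13% of 24750 regions ranked higher and 0.857% lower in 18mo. Comparing 3 against 3 within a kind of control, Ntrk3 region 10 was lost in 18mo untreated retinas (1 of 42, 0.776% of all regions), 0 of 42 were gained (0.892%), and in contralateral retinas 0 were gained (1.14%) and 0 lost (0.122%).

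The second question was the response to pressure. With IOP, 0 of 5 testable member regions differed (5.04% of 5572 genome-wide), 0 of 5 testable genes differed in peak number (3.56% of 5586), and 0 of 10 regions differed in rank (0.630% of 24750 were higher and 6.13% lower in IOP). At 3mo, 0 of 42 regions were gained by all IOP libraries (0.217% of all) and 0 lost (0.241%). At 18mo, where every IOP list was shorter (36011 to 48723 peaks) than every contralateral list (51166 to 60755), 0 were gained (0.239%). At that age 2 were lost, Ntrk3 region 11 and Ngfr region 1 (2.23%). These all-or-none counts have no p-value, since 3 libraries against 3 cannot go below 0.1. The effect of IOP in the 2 ages, and of age in the 2 kinds of control, was compared for 8 peak numbers and 10 ranks, and none of 36 differences passed (lowest adjusted exact permutation p = 0.930).

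Untreated and contralateral retinas served as a comparison of 2 kinds of control. Of 4 testable regions 1, Ngfr region 1, was called more often in contralateral libraries (5.55% of 9868) and 0 less often (5.89%). Of 7 testable genes 1, Gfra1, had more peaks in them (3.02% of 8519) and 0 had fewer (15.1%). In rank, 2 of 10 regions, Ntrk3 region 9 and Ngfr region 3, ranked higher there (15.3% of 24750) with 0 ranking lower (12.1%). None of these held after adjustment over all features, while 5.68% of all regions tested for rank did. With lists cut to the same number of peaks, neither Ntrk3 region 9 nor Ngfr region 3 was still called in every library. Their ranks were therefore not tested there. At 3mo, 1 region (Gfra1 region 4) was called in all contralateral and no untreated libraries (0.489%) and 0 the other way (1.25%). At 18mo it was 3 (Ntrk3 region 10, Ngfr region 1 and Gfra1 region 1, 3.11%) and 0 (1.24%). The age and kind-of-control comparisons use the same 12 libraries, and the contralateral libraries are also the controls of IOP. The kind of control and the shortest-peak class cannot be told apart, since all untreated libraries form 1 class.

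**Figure D4:**
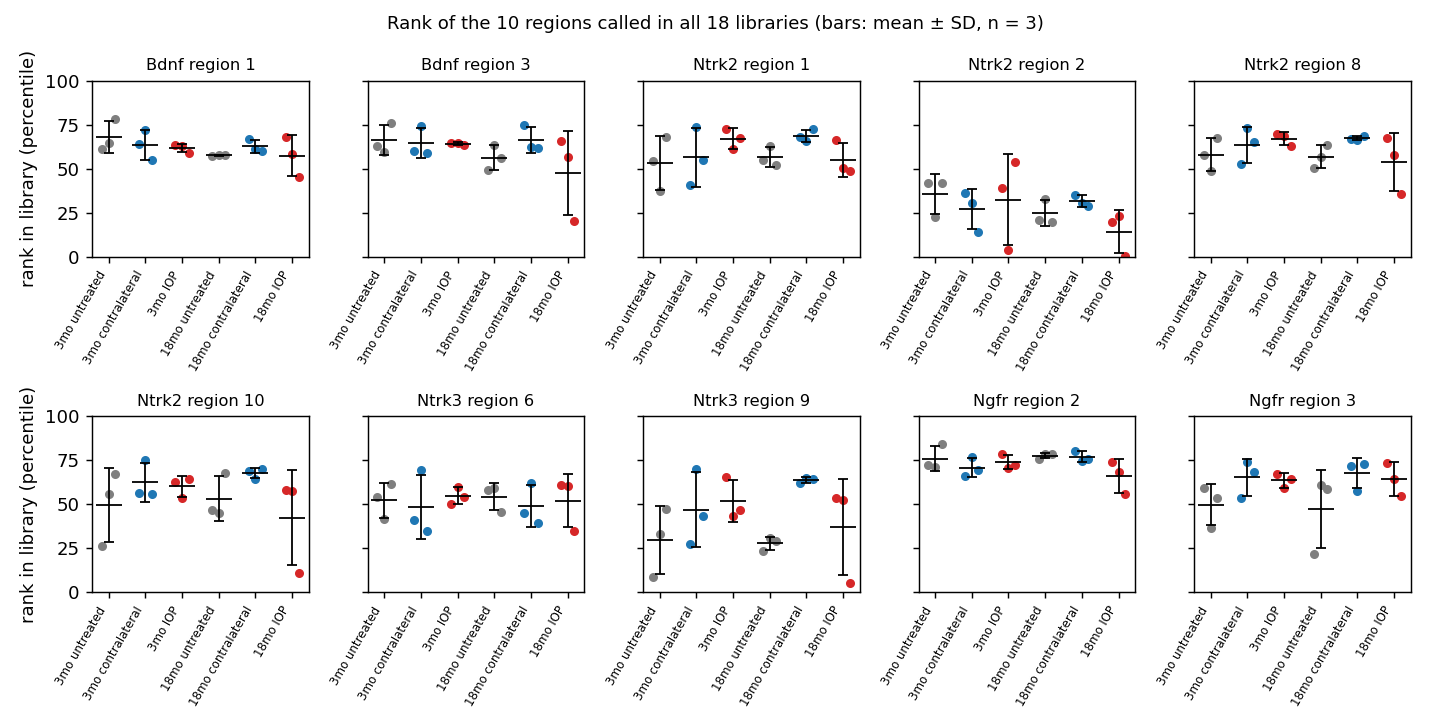
Panels are the 10 regions called in all 18 libraries and the vertical axis is the rank of the strongest peak in its library (percentile, 100 is the top). Points are libraries (grey untreated, blue contralateral, red IOP) and bars are mean ± SD (n = 3). Ngfr region 2 has the highest mean in every group and Ntrk2 region 2 the lowest except in 3mo untreated. The blue means lie above the grey ones at both ages for Ntrk2 region 1, Ntrk2 region 8, Ntrk2 region 10, Ntrk3 region 9 and Ngfr region 3.

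The wider pathway was read from a list of 28 genes that encode other ligands, co-receptors, adaptors and effectors. All 28 were found, with 145 regions, of which 43 (29.7%) were called in all 18 libraries. Of these genes 19 had a start-site region in all 18, among them Ret, the kinase partner of Gfra1, and Sort1, the co-receptor for pro-neurotrophins, whereas 5 had none. In region tests 0 of 17 testable regions differed with age and 0 of 13 with IOP at an unadjusted p under 0.05. Between kinds of control 1 of 17 did, in an intron of Lingo1, which encodes a partner of Ngfr in growth inhibition (chr9:56767645-56768183, 0 of 6 untreated and 6 of 6 contralateral libraries, Fisher's exact p = 0.00216, adjusted p = 0.0872). In peak number 0 of 18 testable genes differed with age and 0 of 15 with IOP, and 1 of 18, Frs3, had fewer peaks in contralateral than in untreated libraries at an unadjusted level (2.33 against 3.17, exact permutation p = 0.0455), as did 15.1% of all genes tested.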

How the data were processed

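The authors called peaks for each ATAC-seq library separately with MACS2 at a q-value of 0.05 and deposited 18 lists, with replicates not pooled. Per the deposited lists the score is the whole part of 10 times −log10 q, the fold is the ratio of the summit's pileup to the local background, and −log10 of the p-value and q-value are given at the summit. The submitters' processing notes name STAR 2.7.8a, bedtools 2.29.2, MACS2, HOMER, edgeR and mm10, with no role stated. Duplicate removal and the shift for the transposase are not given in the sources used here. Read depth is not held in the lists, so list length (36011 to 66160 peaks) stands in its place.

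Peaks were merged at 1 bp overlap (99792 regions, 73567 with at least 2 libraries), with Python 3.11.15, pandas 2.3.3 and scipy 1.17.1. The study tested read counts, which peak lists do not hold. Calls were tested with Fisher's exact test (age, kind of control) or an exact conditional test stratified by age (IOP), and peak numbers and ranks with exact permutation tests of 924 arrangements (400 within age for IOP). All were two-sided, were fitted across the whole table and had Benjamini-Hochberg adjustment over features able to reach 0.05. Nothing in the labels ties libraries to animals, so p-values measure the spread between these libraries. In simulated data with 200 of 73567 regions changed, the age test of regions found 94.0% of them at an unadjusted p under 0.05 and 0% after adjustment. The changed regions were called in nearly every library of one age and in almost none of the other. Smaller differences were not simulated.

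All 8 genes are described. Regions named are those at start sites, the highest-ranked of each gene, those with an unadjusted p under 0.05 and those called in all of one group and none of another. Other regions were named for completeness, and some results for single genes of the wider pathway are not reported here. The members and lists were chosen with earlier results of these data known. The labels give the groups the same replicate numbers without tying them to animals, so numbers were not taken as pairs. Alternatives were a stricter q, equal list lengths, 50% coverage, no filter, other windows, strata, fold ranks and leaving out each library.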

Additional observations from a re-analysis of the deposited data

Results flagged for a closer look

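Dixon's test was run in arms of 6 libraries that pool both ages or both kinds of control, since the study's own groups have 3. It marked 11 of 90 arms, where chance marks about 1 in 20. In the IOP arm, 18mo IOP replicate 3, the shortest list, was low in rank for Bdnf region 3 (20.3, median of the arm 64.1), Ntrk2 region 8 (35.6, median 65.2), Ntrk2 region 10 (11.1, median 57.9) and Ntrk3 region 9 (5.36, median 49.7). Ngfr region 3 was low in 18mo untreated replicate 4 among 18mo controls (21.4, median 59.8), and Ntrk2 region 2 in 3mo contralateral replicate 3 among contralateral libraries (14.1, median 30.8). Bdnf region 1 was high in 3mo untreated replicate 6 among untreated libraries (78.6, median 59.5). For peak numbers, where arms hold few distinct values, Ntf3 had 1.00 peak in 18mo contralateral replicate 1 and 0 in the others, both among contralateral libraries and among 18mo controls. Gdnf had 2.00 in 3mo IOP replicate 3 against 1.00 in the other IOP libraries, and Ngfr 3.00 in 18mo untreated replicate 4 against 2.00 in the other untreated ones. What sets these values was not tested.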

How the results depend on the processing

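With every list shortened to its top 36011 peaks, member regions differing between kinds of control went from 1 to 0, 18mo IOP all-or-none regions from 2 to 0 and age rank calls from 0 to 1. Requiring peaks to cover 50% of a region gave 6 regions for kind of control and 1 all-or-none region at 18mo. Ranking by fold enrichment gave 5 rank calls for kind of control, and untreated controls alone gave 1 all-or-none age region. A 50 kb upstream window added 1 IOP region (chr7:45372650-45372943, upstream of Ntf5 and outside the window used, 5 of 6 IOP and 0 of 6 contralateral libraries, exact p = 0.0200). Of single values, Ngfr region 1 lost its call with equal lists (exact p = 0.182) and 50% cover (exact p = 0.0606), the Gfra1 peak number with equal lists (exact p = 0.455) and the rank of Ngfr region 3 by fold enrichment (exact p = 0.0974). No result reversed. The causes were not tested, and regions below the caller's threshold cannot be seen in lists without read depth.

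Deviations of same-numbered IOP and contralateral libraries correlated at r −0.0898 to 0.0974 over regions, and not every library correlated best with its own number, so the replicate block rests on shared numbers only. With it, 0 IOP regions, 0 genes by peak number and 0 ranks were called, as without it. Leaving out each library in turn gave 0 to 1 IOP regions, 1 to 2 regions for kind of control, 0 to 1 all-or-none IOP regions at 3mo (1 without contralateral replicate 1, IOP replicate 1 or IOP replicate 3) and 2 to 4 at 18mo (4 without contralateral replicate 1 or 2 or IOP replicate 1 or 2), 0 to 2 IOP and 1 to 2 kind-of-control genes by peak number, and 0 to 1 age and 1 to 4 kind-of-control ranks. Leaving out a library loosens the all-or-none rule, so the all-or-none counts could only stay or rise. The differences of Ngfr region 1, Gfra1 peak number and Ntrk3 region 9 rank between kinds of control kept exact p-values of 0.00216 to 0.0152, 0.0108 to 0.0390 and 0.00649 to 0.0390. That of Ngfr region 3 rank rose to 0.0671 without 3mo contralateral replicate 2, 18mo contralateral replicate 1 or replicate 3, and to 0.0649 without 3mo contralateral replicate 3. Ntrk3 region 11 fell to an IOP p of 0.0200 without 3mo contralateral replicate 3 or 3mo IOP replicate 2, and the Ngfr peak number to 0.0108 without 3mo contralateral replicate 3 and 0.0152 without 18mo untreated replicate 4 (exact tests). Apart from Ntrk3 region 11, the only IOP region was Gfra1 region 1, without 3mo IOP replicate 1 or 18mo IOP replicate 1 (exact p = 0.0200). Regions for kind of control were 2 without 3mo untreated replicate 4 or 6 or 18mo contralateral replicate 1 or 2. IOP peak numbers were 2 without 3mo contralateral replicate 3 and 1 without 3mo IOP replicate 1. Age ranks were 1 without 3mo untreated replicate 6 or 3mo contralateral replicate 3, and kind-of-control ranks 4 without 3mo untreated replicate 6.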
